A study of Mus musculus with 8 samples.

Results

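7 genes of protein synthesis and protein folding were followed in mouse leukemia cells with and without Gata2, which encodes a GATA family transcription factor needed by hematopoietic stem cells. They were Rps20, Rpl30, Pabpc1, Cct5, Pop1, Polr2k and Rbm28, that is, 7 of 49585 rows of a table of read counts, found by the Ensembl identifier that carries each symbol. All 7 lie in stretches of chromosomes 4, 6 and 15 where genes that every cell uses were counted at usual levels. The cells were MA9 leukemia cells of bone marrow origin, MA9 commonly standing for the oncogene MLL-AF9, and they were cultured in serum with IL-3, IL-6 and SCF. The comparison groups were Gata2 f/f, with both Gata2 alleles present and flanked by recombination sites, and Gata2 KO (labelled Gata2 -/-), with 4 libraries of poly(A) RNA each. Both groups carried MA9 and grew in the same medium. The labels used here do not say how the alleles were recombined, or what sets 1 replicate apart from another (animal, culture or RNA sample), and p-values therefore reflect no more than the library-to-library spread.

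Ribosomes are built in the nucleolus from ribosomal RNA and ribosomal proteins, and the messenger RNAs they read are held by poly(A)-binding proteins. New actin and tubulin chains are folded by a ring-shaped chaperonin. Leukemia cells that divide quickly depend on a high output of this machinery. Among the genes described here, Rps20 and Rpl30 encode proteins of the small and the large ribosomal subunit. Pabpc1 encodes the main cytoplasmic poly(A)-binding protein, and Cct5 a subunit of the chaperonin. Pop1 encodes a protein subunit of RNase P and RNase MRP, which process transfer RNA and ribosomal RNA precursors. Polr2k encodes a small subunit shared by the nuclear RNA polymerases I, II and III, and Rbm28 a nucleolar RNA-binding protein of ribosome assembly.

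Total counts ran from 1610369 to 6237748 per library, and the libraries with replicate number 4 had the highest total of each genotype. Many row names stand beside counts that the named genes would not usually have. Actb had 10 counts and B2m had 0 over the 8 libraries, and 62 of 79 rows named for ribosomal proteins lay under 1 CPM, the read count scaled to a common library total, in the pooled libraries. Names are therefore read as genes only between Rps20 and Mrpl50 on chromosome 4, between Ndufa4 and Ube2h on chromosome 6, and between Cct5 and Atp6v1c1 on chromosome 15. These checked segments held 977 rows, of which 253 passed the low-count filter, all 7 genes among them. That choice of segments was settled with the counts known. The Gata2 row, outside the segments, held 0 to 2 counts in any library, and so did not check the genotype labels. Of 59 marker genes of blood and stromal cell types only Pax5 lay in a segment, and it did not pass the filter, so cell type could not be checked and a change in cell makeup was not tested. In bulk RNA, fewer cells of a type and less RNA per cell cannot be told apart.

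All 7 genes were lower in Gata2 KO than in Gata2 f/f within every replicate pair, which makes 28 of 28 ratios. A pair here is the Gata2 KO and the Gata2 f/f library with the same replicate number. The ratios ran from -0.11 to -0.73 on the log2 scale. The 7 ratios of a pair share the same libraries and scaling, so the 28 are not independent. Of the 253 rows tested in the checked segments, 26.9% were lower in all 4 pairs, and of all rows tested 23.4% were. The 7 genes were chosen with earlier results of these data known, so setting them beside such shares is not a test of the set. By library-total CPM all 7 genes were also lower in all 4 pairs, as were 26.5% of segment rows and 24.9% of all rows tested. An exact sign-flip permutation test over 4 pairs cannot pass a threshold of 0.05, so single genes were tested in models across all rows. With genotype alone in the model, 1 of the 7, Pop1, passed an adjusted p of 0.05 in edgeR, against 2.77% of segment rows and 3.53% of all rows tested that were called lower. A model that also held a term for the replicate number (a block) called all 7 lower, where 24.1% of segment rows and 16.7% of all rows tested were called lower. At an unadjusted p under 0.05, 4 of the 7 were lower with genotype alone, as were 12.6% of segment rows and 11% of all rows tested.

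**Figure D1:**
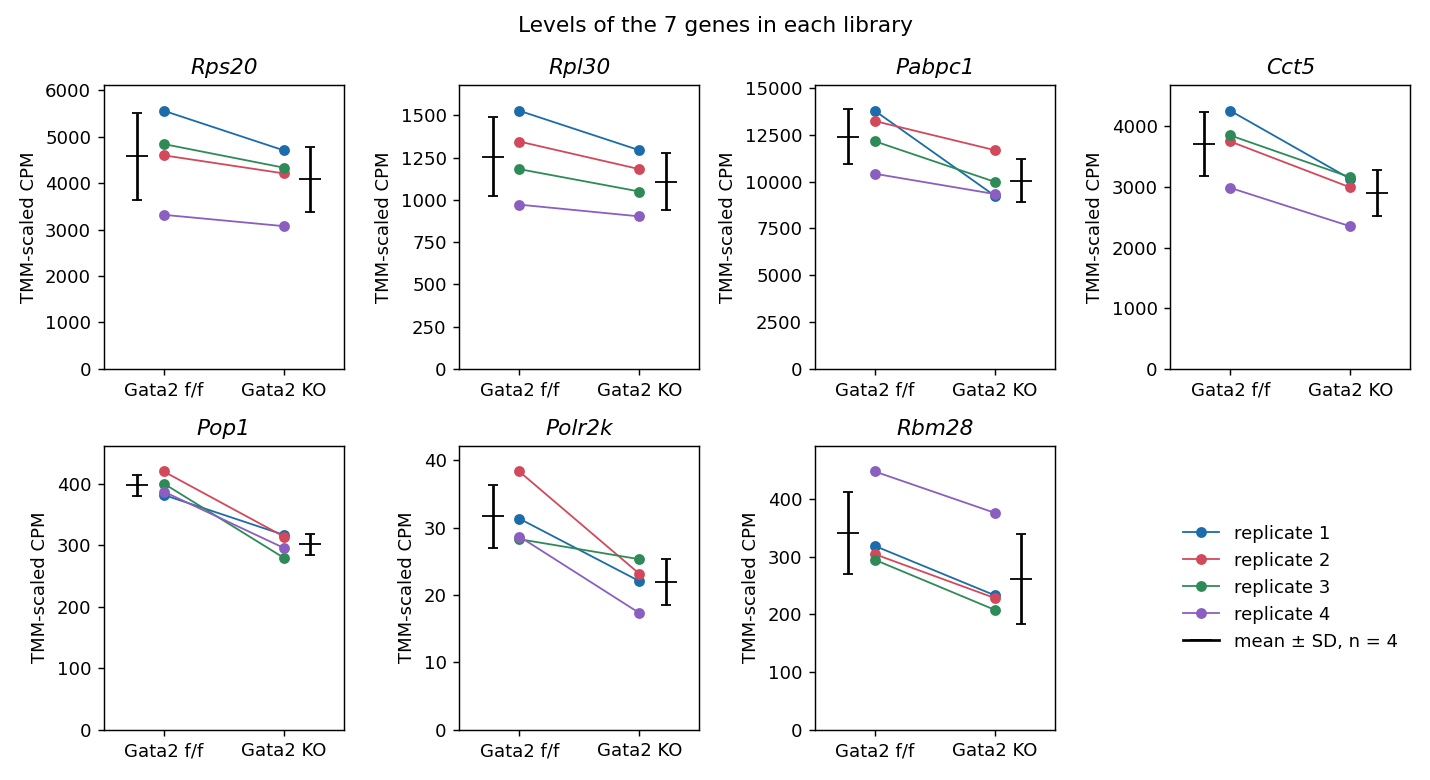
Level of each gene, in CPM scaled by the trimmed mean of M-values (TMM), in the 8 libraries; coloured lines join libraries with the same replicate number, and black bars are mean ± SD (n = 4). All 28 lines run downward from Gata2 f/f to Gata2 KO. Replicate 4 is the lowest library of each genotype for Rps20, Rpl30 and Cct5, and the highest for Rbm28.

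The genes spanned a wide range of levels. Per kilobase of the principal transcript, Pabpc1 was the highest in Gata2 f/f, at 4401 ± 526 CPM per kb (SD, n = 4). Cct5 followed at 2001 ± 286, and then Rpl30 at 1419 ± 267 and Rps20 at 1236 ± 252 CPM per kb. Pop1, at 117 ± 4.99, Rbm28, at 76.4 ± 16.04, and Polr2k, at 64.8 ± 9.51 CPM per kb, formed a lower tier. The neighbours Rpl30 and Rps20 lay within their spread of each other, as did Rbm28 and Polr2k. The place of Rps20 depends on the transcript model, since its principal transcript has 3706 bases for 357 coding bases. Per kilobase of coding sequence Rps20 was the highest, at 12829 ± 2618 CPM per kb, ahead of Pabpc1 at 6498 ± 777. The order of Pop1, Rbm28 and Polr2k turned round on that scale too, at 127 ± 5.41, 152 ± 31.8 and 182 ± 26.7 CPM per coding kb.

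The ribosomal protein genes had the fold changes nearest to 0 of the set. Rps20 (ENSMUSG00000028234, chromosome 4 from 3831334 to 3835665 in GRCm38) was at 5560, 4600, 4842 and 3319 TMM-scaled CPM in Gata2 f/f replicates 1 to 4 and at 4705, 4209.5, 4334 and 3074 CPM in Gata2 KO replicates 1 to 4. Replicate 4 was the lowest library of both genotypes, and the genotypes overlapped. The log2 fold change of Rps20 was -0.17 ± 0.18 (SE, adjusted p = 0.62, edgeR) with genotype alone and -0.16 ± 0.06 (adjusted p = 0.0312, edgeR) with the block. Without both libraries numbered 4, the adjusted p with the block was 0.0834. With genotype alone the fold change moved with single libraries. It was -0.30 when replicate 4 of Gata2 f/f was left out, -0.06 when replicate 1 of that genotype was, and -0.05 when replicate 4 of Gata2 KO was. Names at this end of chromosome 4 rest on fewer checked genes than the others. Rps20 is itself the first gene of its checked segment, so no checked gene before it backs the name. The same holds for Cct5 on chromosome 15.

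Rpl30 (ENSMUSG00000058600, chromosome 15 from 34440505 to 34443640) was at 1528, 1346, 1182 and 972 CPM in Gata2 f/f and at 1294, 1182, 1049.9 and 903 CPM in Gata2 KO, replicates 1 to 4 in turn. Here too replicate 4 was lowest in each genotype and the genotypes overlapped. Its log2 fold change was -0.18 ± 0.16 (SE, adjusted p = 0.529, edgeR) with genotype alone and -0.18 ± 0.06 (adjusted p = 0.0231, edgeR) with the block. Without the libraries numbered 4, the adjusted p with the block was 0.0606. Leaving out the same libraries moved Rpl30 alike, to -0.29, -0.08 and -0.10. Ribosomal protein genes have many processed copies, and 9 rows carried a name of the form Rpl30-ps plus a number. One of these, Rpl30-ps3, held 3709 counts, while the other 8 held at most 7 counts each. They lie outside the checked segments, so whether reads were split between Rpl30 and its copies was not tested.

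The ratio of the ribosomal protein genes to each other needs no scaling factor. Per count of Rpl30, Rps20 had 3.64, 3.42, 4.10 and 3.41 counts in Gata2 f/f replicates 1 to 4. In Gata2 KO replicates 1 to 4 it had 3.64, 3.56, 4.13 and 3.41 counts. The ratio differed between replicate numbers more than between genotypes of a number. The log2 change of Rpl30 relative to Rps20 was -0.02, with pair values from -0.06 to 0.003 (58 of the 70 possible groupings of the libraries gave a difference at least as large, exact two-sided permutation test, n = 4 a genotype).

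Pabpc1 (ENSMUSG00000022283, chromosome 15 from 36595661 to 36609668) had the most counts of the set, 17175 to 61436 per library. It was at 13783, 13233, 12154 and 10419.6 CPM in Gata2 f/f replicates 1 to 4 and at 9238, 11677, 9984 and 9335 CPM in Gata2 KO replicates 1 to 4. Gata2 f/f replicate 4, the lowest of its genotype, fell within the Gata2 KO range. Gata2 KO replicate 1 was the lowest library of all, and pair 1 had the widest gap, at -0.58 on the log2 scale against -0.16 to -0.28 in the other pairs. The log2 fold change was -0.30 ± 0.13 (SE, adjusted p = 0.181, edgeR) with genotype alone and -0.30 ± 0.07 (adjusted p = 0.00182, edgeR) with the block. It passed without the libraries numbered 4 in both models (adjusted p = 0.0215 with genotype alone and 0.00459 with the block). Without pair 1 it passed with the block at -0.21 on the log2 scale (adjusted p = 3.38e-05, edgeR).

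Cct5 (ENSMUSG00000022234, chromosome 15 from 31590800 to 31601804) was at 4254, 3747, 3848 and 2983 CPM in Gata2 f/f replicates 1 to 4 and at 3129, 2989, 3157 and 2349 CPM in Gata2 KO replicates 1 to 4. Only Gata2 f/f replicate 4 lay within the range of Gata2 KO. The gap was similar in the 4 pairs, from -0.29 to -0.44 on the log2 scale. Its log2 fold change was -0.35 ± 0.14 (SE, adjusted p = 0.139, edgeR) with genotype alone and -0.35 ± 0.06 (adjusted p = 9.4e-05, edgeR) with the block, a level 21.5% lower. Without the libraries numbered 4 Cct5 passed in both models, at adjusted p = 0.00749 with genotype alone and 0.00187 with the block.

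Pop1 (ENSMUSG00000022325, chromosome 15 from 34495304 to 34530648) was at 382, 419.9, 400.3 and 387 CPM in Gata2 f/f and at 317, 314, 279 and 296 CPM in Gata2 KO, replicates 1 to 4 in turn. The lowest Gata2 f/f library lay above the highest Gata2 KO library, as happened in this direction in 7.51% of segment rows and 7.52% of all rows tested. It had the smallest spread of the set, with a coefficient of variation of 4.27% in Gata2 f/f and 5.80% in Gata2 KO, and replicate 4 did not stand apart. Pop1 fell by 0.40 ± 0.09 on the log2 scale (SE, adjusted p = 0.0167, edgeR) with genotype alone and by 0.40 ± 0.06 (adjusted p = 9.79e-05, edgeR) with the block. Without Gata2 KO replicate 3 its adjusted p with genotype alone was 0.07, and without replicate 2 or 3 of Gata2 f/f it was 0.0593 or 0.0546, so that the call was lost, as it was with no low-count filter (0.109). With the block Pop1 passed whichever pair was left out, at adjusted p = 2.23e-08 to 0.00261.

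Polr2k (ENSMUSG00000045996, chromosome 15 from 36174010 to 36177010) was the least counted, with 41 to 169 reads per library. Its level was 31.3, 38.3, 28.3 and 28.7 CPM in Gata2 f/f replicates 1 to 4 and 22.1, 23.1, 25.3 and 17.3 CPM in Gata2 KO replicates 1 to 4. The genotypes did not overlap, as happened in this direction in 7.51% of segment rows and 7.52% of all rows tested. The gap ranged from -0.16 in pair 3 to -0.73 in pairs 2 and 4. The log2 fold change was the widest of the set, at -0.53 ± 0.18 (SE, adjusted p = 0.0762, edgeR) with genotype alone. With the block it was -0.54 ± 0.14 (adjusted p = 0.00513, edgeR), and without the libraries numbered 4 the adjusted p with the block was 0.0819.

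Rbm28 (ENSMUSG00000029701, chromosome 6 from 29123576 to 29165006) was at 319, 304, 295 and 448 CPM in Gata2 f/f replicates 1 to 4 and at 233, 228, 208 and 376 CPM in Gata2 KO replicates 1 to 4. In replicates 1 to 3 every Gata2 KO library lay under every Gata2 f/f library, while Gata2 KO replicate 4 lay above 3 of the Gata2 f/f libraries. The log2 fold change was -0.39 ± 0.20 (SE, adjusted p = 0.254, edgeR) with genotype alone and -0.40 ± 0.07 (adjusted p = 0.000162, edgeR) with the block. Without the libraries numbered 4 it was -0.45 ± 0.09 (adjusted p = 0.00172, edgeR) with genotype alone and -0.45 ± 0.08 (0.000774) with the block.

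**Figure D2:**
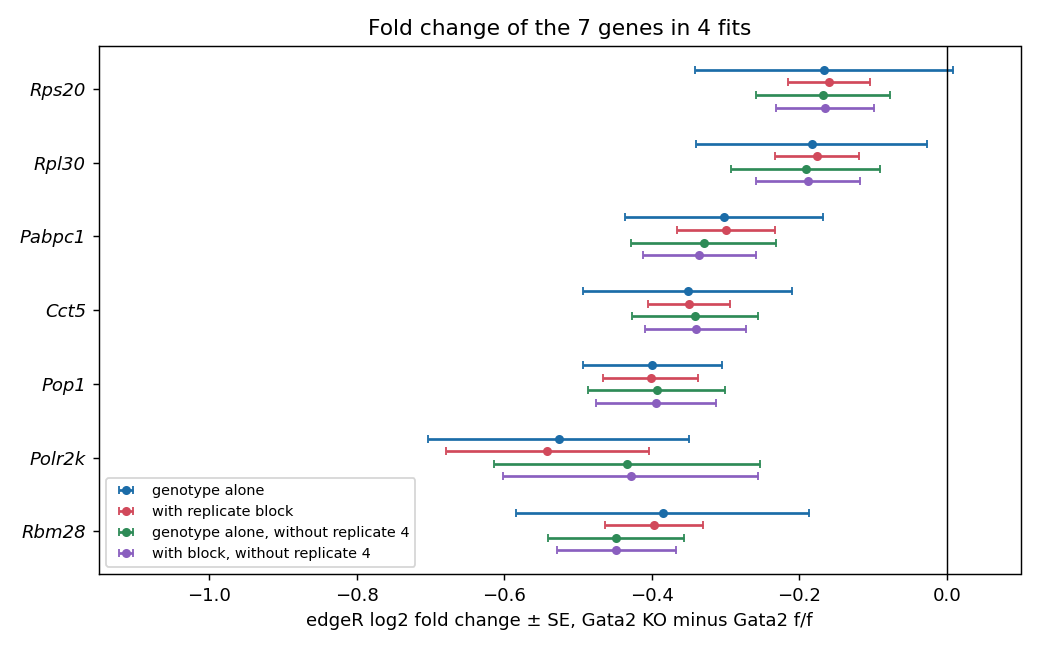
Log2 fold change (Gata2 KO minus Gata2 f/f) and SE of the 7 genes in 4 edgeR models: genotype alone or with the replicate block, both fitted with and without both libraries numbered 4. The estimates of a gene lie close together, from -0.16 for Rps20 to -0.54 for Polr2k, while the SE is widest with genotype alone and all libraries, except for Polr2k.

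The libraries numbered 4 moved the genes in different directions, and each gene in the same direction in both genotypes, though not always by a like amount. Against the mean of replicates 1 to 3, replicate 4 of Gata2 f/f was at -0.59 on the log2 scale for Rps20, -0.47 for Rpl30, -0.40 for Cct5 and -0.32 for Pabpc1. In Gata2 KO the same differences were -0.52, -0.38, -0.40 and -0.14. Rbm28 went the other way, with 0.55 in Gata2 f/f and 0.76 in Gata2 KO. For Rps20, Rpl30, Cct5 and Rbm28 these gaps were wider in both genotypes than the log2 fold change between genotypes, and for Pabpc1 in Gata2 f/f alone. Pop1 moved little (-0.05 and -0.04). Polr2k was at -0.18 and -0.44. Without both libraries numbered 4, 4 of the 7 genes were called lower with genotype alone (Pabpc1, Cct5, Pop1 and Rbm28), where 13.4% of segment rows and 8.34% of all rows tested were called lower. With the block and without those libraries it was the same 4 genes, against 18.5% of segment rows and 10.9% of all rows tested. What sets the libraries numbered 4 apart, beside their higher total, was not tested.

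Counts taken relative to Rps20 in the same library show whether the other genes went lower than a ribosomal protein gene, with no scaling factor involved. In this form Cct5 was the only one of 6 genes whose genotypes did not overlap, where all Gata2 KO libraries lay under all Gata2 f/f libraries in 2.37% of segment rows and 1.82% of all rows tested. Cct5 had 0.765, 0.815, 0.795 and 0.899 counts per Rps20 count in Gata2 f/f replicates 1 to 4 and 0.665, 0.710, 0.729 and 0.764 in Gata2 KO replicates 1 to 4. The log2 change was -0.19 (exact two-sided permutation p = 0.0286, the smallest that 70 groupings allow, and 0.171 after Benjamini-Hochberg adjustment over 6 ratios). Pabpc1, Pop1, Polr2k and Rbm28 were also lower relative to Rps20 in 4 of 4 pairs, by log2 changes of -0.14, -0.24, -0.37 and -0.25. Their exact p-values were 0.4, 0.286, 0.0571 and 0.457, and 0 of the 6 ratios passed after adjustment. These groupings take no account of the pairs. In an exact sign-flip permutation test that keeps the pairs, Cct5 and these 4 genes each gave 2 of 16 sign patterns at least as large, the fewest that 4 pairs allow, so that the test could not have passed 0.05, and Rpl30 gave 8 of 16. Polr2k hardly differed from Rps20 in pair 3 (-0.0005) and had its widest gap in pair 4 (-0.62). These ratios were chosen after the counts were seen. All 6 share the Rps20 counts, so they are not independent of each other. The share of other rows lower relative to Rps20 in all 4 pairs was not computed.

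**Figure D3:**
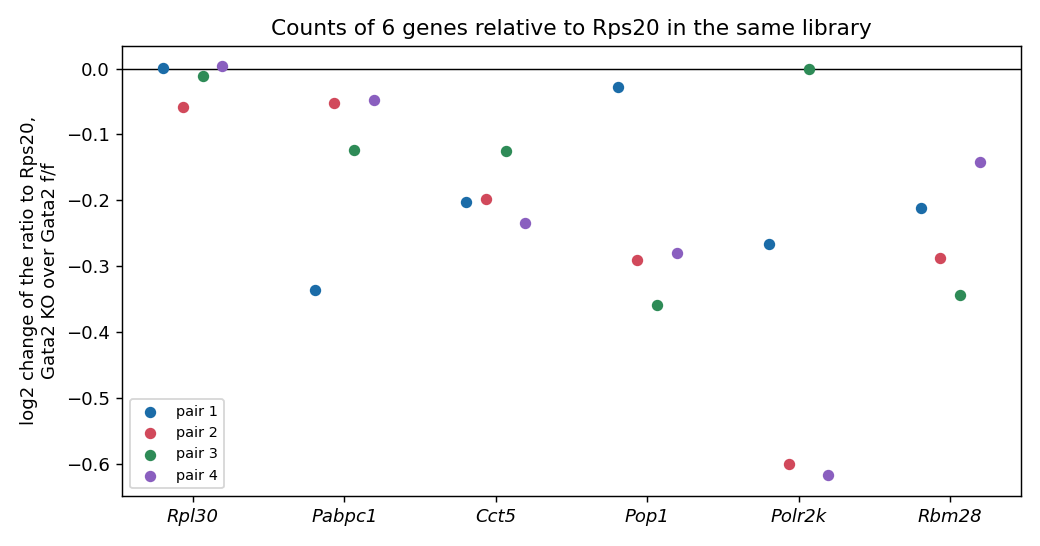
Log2 change, Gata2 KO over Gata2 f/f of the same replicate number, of each gene's counts divided by the Rps20 counts of the same library; points are the 4 pairs. Rpl30 stays between -0.06 and 0.003, and the other 5 genes lie at or under 0 in all 4 pairs.

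Other genes of the same machinery were taken from lists of ribosomal proteins, translation factors, folding factors, RNA polymerase subunits, RNase P and tRNA processing, and nucleolar ribosome assembly. Beside the 7 genes, 7 of their members lay in the checked segments and all 7 were tested. With genotype alone 0 of these passed in edgeR and 0 in DESeq2, and 3 had an unadjusted p under 0.05 in edgeR, all 3 lower, beside the same 12.6% of segment rows. The block gave 4 lower and 0 higher, namely Exosc3, Dnaja1, Polr1e and Nol6, where 24.1% of segment rows and 16.7% of all rows tested were called lower. With the block the count was 4 without the libraries numbered 3 or 4 and 3 without those numbered 1 or 2. Without numbers 1 to 4 in turn, that model called 66 of 261, 48 of 262, 43 of 254 and 47 of 254 segment rows lower. With genotype alone the count was 2 without the libraries numbered 4, without Gata2 f/f replicate 4, with library totals and with TMM from the checked segments. In that order, these fits called 34 of 254, 21 of 257, 17 of 253 and 11 of 253 segment rows lower. The median log2 fold change of the 7 other genes was -0.23 with genotype alone, against -0.35 for the 7 genes, -0.01 for segment rows and -0.01 for all rows tested. The genes and lists were chosen with earlier results of these data known, so these medians are a description and not a test.

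Exosc3, a subunit of the RNA exosome that trims ribosomal RNA precursors, was at 778 ± 139.8 CPM in Gata2 f/f and 581 ± 56.4 in Gata2 KO (SD, n = 4 each), a log2 fold change with the block of -0.40 ± 0.07 (SE, adjusted p = 0.00012, edgeR). Dnaja1, a cochaperone of HSP70, was at 577 ± 73.1 and 459 ± 38.4 CPM, and fell by 0.32 ± 0.06 with the block (adjusted p = 0.000464, edgeR). For Polr1e, a subunit of RNA polymerase I, the levels were 267 ± 26.7 and 218 ± 27.9 CPM (adjusted p = 0.00177 with the block, edgeR). Nol6, a nucleolar protein of small-subunit assembly, was at 755 ± 66.1 and 644 ± 58.3 CPM (adjusted p = 0.0285 with the block, edgeR). These 4 were lower in all 4 pairs.

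The folding list was mixed. Bag1, another HSP70 cochaperone, was at 1765 ± 304 CPM in Gata2 f/f and 1769 ± 211 in Gata2 KO, so that its log2 fold change was near 0 (0.004 ± 0.14 SE, adjusted p = 0.994, edgeR). Dnajb5, a member of the HSP40 family, was higher in all 4 pairs, at 28.5 ± 3.77 and 35.7 ± 3.88 CPM, and did not pass with genotype alone (adjusted p = 0.244, edgeR) or with the block (0.0731). Of the RNase P list, Rpp25l was at 131 ± 13.8 and 123 ± 7.92 CPM and did not pass either (adjusted p = 0.528 with the block, edgeR), beside Pop1, which fell.

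**Figure D4:**
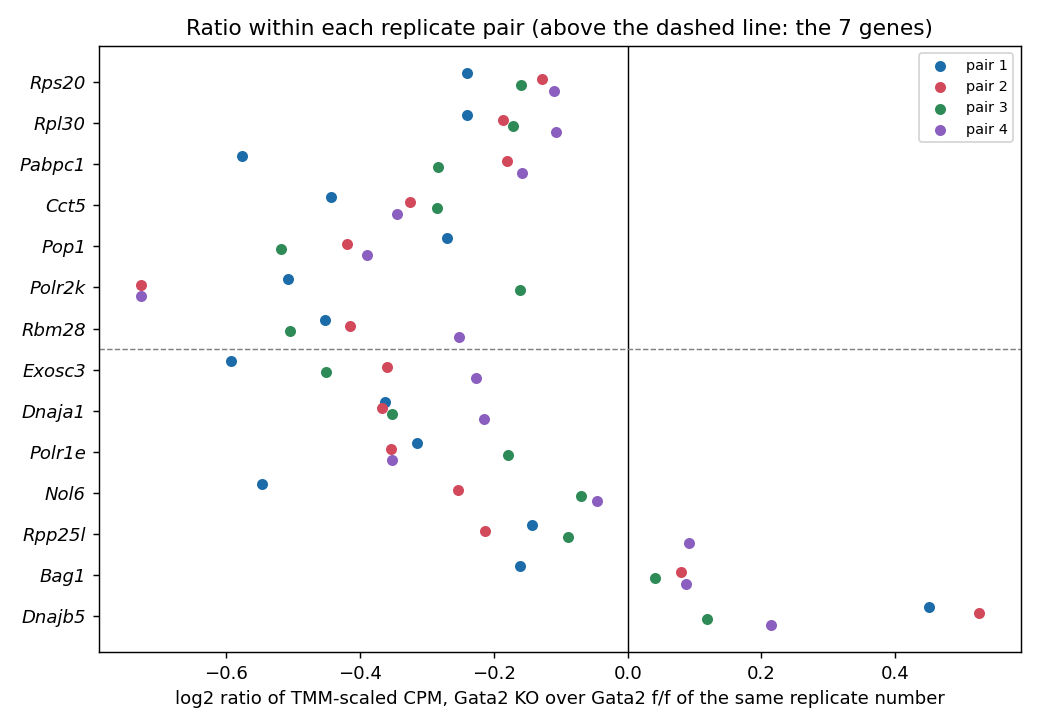
Log2 ratio of TMM-scaled CPM, Gata2 KO over Gata2 f/f, within each of 4 replicate pairs, for the 7 genes (above the dashed line) and the 7 other listed genes of the checked segments. All ratios of the 7 genes are negative, Exosc3, Dnaja1, Polr1e and Nol6 are negative in 4 pairs, and Dnajb5 is positive in 4 pairs.

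The nearest tested rows on either side of the genes were 11 different rows in the checked segments. Of these, 1 was lower with genotype alone and 0 were higher, and with the block 2 were lower and 1 was higher. Of the 253 segment rows tested, 7 were called lower and 24 higher with genotype alone, and 61 lower and 54 higher with the block. Of all 6580 rows tested, 232 were called lower and 590 higher with genotype alone, and 1102 lower and 1237 higher with the block. The neighbours are too few to set apart from these shares. Impdh1, an enzyme of guanine nucleotide synthesis next to Rbm28, had a wider fall than any of the 7 genes, at -0.85 ± 0.11 on the log2 scale (SE, adjusted p = 0.000578, edgeR). Matn2, a matrix protein next to Rpl30, was at 0.52 ± 0.25 and was called higher with the block (adjusted p = 0.0493, edgeR) but not with genotype alone (0.216). The row named Lyn, before Rps20 and outside the segments, was at 1.03 ± 0.10 (SE, adjusted p = 8.31e-05, edgeR). Ywhaz and Ankrd46, on either side of Pabpc1, had log2 fold changes of -0.01 ± 0.12 and -0.12 ± 0.13 (SE, adjusted p = 0.977 and 0.619, edgeR; 0.916 and 0.27 with the block). Fam173b starts 47 bases from Cct5 and runs the other way. It was at 88.0 CPM in Gata2 f/f and 77.9 in Gata2 KO, a log2 fold change of -0.18 ± 0.14 (adjusted p = 0.475, edgeR, and 0.142 with the block). Rida lies 48 bases from Pop1, also facing away from it, and was at 53.7 and 36.9 CPM, with a log2 fold change of -0.56 ± 0.27 (adjusted p = 0.228, edgeR). With the block Rida fell as well (adjusted p = 0.00282). No test compared a gene with its neighbour. Of annotated genes that overlap one of the 7, the rows inside Rps20, Rpl30 and Rbm28 that the table holds (small RNA genes Gm24016, Gm24523 and Gm24303) had 0 counts each. D730044K07Rik, on the strand opposite Rpl30, had no row among the counts. The kit in the labels' protocol keeps no record of strand, so reads of opposite strands cannot be told apart.

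Cct5 and Rbm28 were matched to start site windows of RefSeq (GRCm38.p6), 300 bases each, with 2 windows for Cct5 and 1 for Rbm28. Because Gata2 is the deleted gene, the windows were searched on both strands for the letters of GATA factor sites, AGATAA or TGATAA, or either of these with G as its last letter. They were found in 29.8% of all 32851 windows. The Rbm28 window and the outer Cct5 window held none, and the inner Cct5 window held 1, TGATAA on the opposite strand, inside the coding part of exon 1 of the principal transcript. In all 5 other motifs of widely expressed genes were searched on both strands: TGACGT (a cyclic AMP response half-site, in 7.51% of windows), CCGGAA (an ETS factor core, in 14.9%), CACGTG (an E-box, in 7.15%), GGGCGG (a GC box, in 35.7%) and CCAAT (in 37.4%). Rbm28 held TGACGT once, CCGGAA on both strands at overlapping positions, and GGGCGG at 2 places. The inner Cct5 window held CCGGAA once and the outer one GGGCGG once, and no window of either gene held CACGTG or CCAAT. The TGACGT and CCGGAA matches of Rbm28 lie in the annotated UTR of its exon 1. The stretches with these letters of Rbm28 and with the GATA letters of Cct5 are shown 5′ to 3′ on the strand of the gene, with the matches in capitals: Rbm28 at chr6:29164769-29164798 (minus strand) and Cct5 at chr15:31601636-31601665 (minus strand).
Rbm28: ggACGTCAtttttctttttctTTCCGGAAc
Cct5: gcccctttctcaTTATCAaggaccaagatc
A match of letters is a description of these windows and not a binding site.

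By profile over the 8 libraries, the gene of the checked segments most like each of the 7 was found among 210 candidates, as the one with the smallest root mean square difference of mean-centred log2 CPM. The closest match was Rars2 to Rpl30, at 0.04. Stoml2 was nearest to Cct5 (0.06), Rab2a to Pabpc1 (0.07), Mms22l to Pop1 (0.07), Smu1 to Rps20 (0.09), Zcchc7 to Rbm28 (0.09) and Tex10 to Polr2k (0.16). All of these nearest genes were also lower in Gata2 KO in all 4 pairs. With the block their log2 fold changes ran from -0.15 (Smu1) to -0.44 (Zcchc7). All but Smu1 (adjusted p = 0.0555, edgeR) were called lower with the block, as were 24.1% of segment rows. The match used libraries of both genotypes, so a like fall is partly built in. The median candidate lay at 0.25 from Rpl30 and at 0.47 from Rbm28. Dnaja1 and Exosc3 came next for Cct5, at 0.06 and 0.07. Zcchc7 shared the high level of Rbm28 in the libraries numbered 4, with 0.44 in Gata2 f/f and 0.57 in Gata2 KO above the mean of replicates 1 to 3 on the log2 scale.

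**Figure D5:**
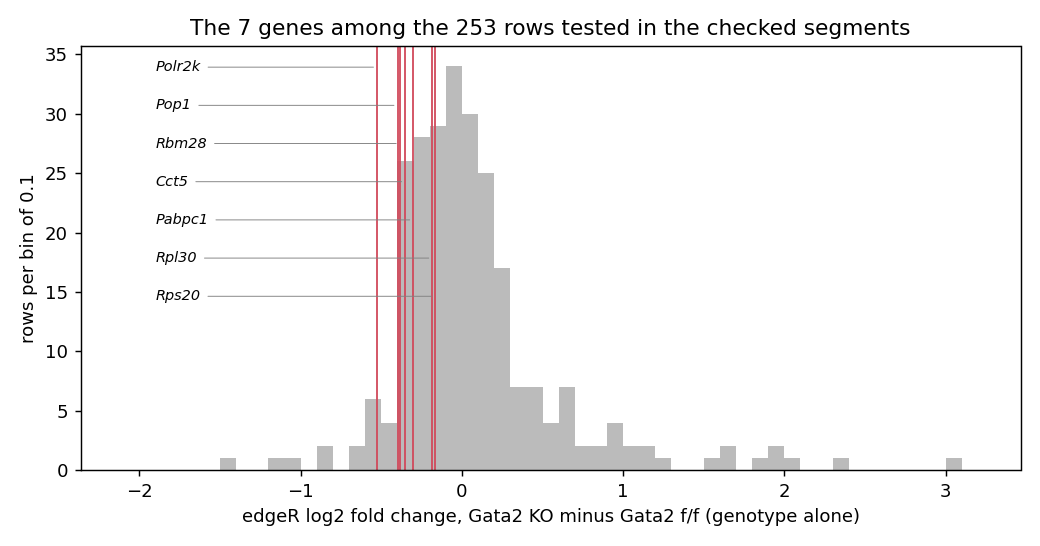
Distribution of the edgeR log2 fold change (Gata2 KO minus Gata2 f/f, genotype alone) over the 253 rows tested in the checked segments, in bins of 0.1, with the 7 genes as red lines. The 7 lie between -0.53 (Polr2k) and -0.17 (Rps20), left of the median of all segment rows at -0.01. They were chosen with earlier results of these data known.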

How the data were processed

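The deposited table holds raw counts for 8 libraries, 1 row per Ensembl gene. The submitters' processing notes name mm10, kallisto, HTSeq and DESeq2; the tool behind the counts is not given in the sources used here. Sample descriptions gave the match to columns, and symbols and GRCm38 coordinates come from GENCODE M21. All 49585 rows entered edgeR 4.0.16 (R 4.3.3): TMM scaling, the default filter by group (minimum count 10), a quasi-likelihood F-test with genotype alone, and Benjamini-Hochberg adjustment over 6580 rows tested. The SE was taken as the log2 fold change divided by the square root of F. The scripts were tested on simulated data, in which the fold changes were wider than those of the 7 genes and replicate numbers had no effect. How the fits handle smaller changes or a replicate effect was not tested. A count of 0 allows up to 3 counts, or 0.456 to 1.86 CPM, for counting error only.

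The genotypes share replicate numbers 1 to 4 in the titles. Deviations from the genotype means correlated across rows at 0.333, 0.213, 0.243 and 0.804 for numbers 1 to 4, each over 0.1, so libraries were treated as pairs and values with the block are given. Libraries of other numbers correlated at 0.0948 to 0.182 among 1 to 3 and at -0.474 to -0.333 with number 4, and 8 of 8 libraries correlated best with their own number. Values over 0.1 thus also occurred between different numbers, so that limit alone does not set pairs apart. The margin over other numbers was widest for number 4. The members, lists and segments were chosen with earlier results of these data known. Beside the 7 genes, the text names the other listed genes of the segments, the nearest profile of each gene and some tested neighbours. DESeq2 1.42.0 and other scalings, filters and left-out libraries were alternatives.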

Additional observations from a re-analysis of the deposited data

Results flagged for a closer look

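In groups of 4 libraries, 3 of 28 tested gene and genotype combinations had a library whose gap to the nearest other library exceeded Dixon's limit for 4 values, as a share of the group's range. Chance flags about 1 in 20 such groups. Rbm28 was at 448 CPM in Gata2 f/f replicate 4, where the next library was at 319, and at 376 CPM in Gata2 KO replicate 4, where the next was at 233. Exosc3 was at 497 CPM in Gata2 KO replicate 4, under a next lowest library of 601 CPM. All 3 belong to the libraries numbered 4, and without those libraries Rbm28 and Exosc3 were called lower in Gata2 KO with genotype alone (adjusted p = 0.00172 and 0.000895, edgeR).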

How the results depend on the processing

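All 7 genes kept a negative log2 fold change in the 19 alternatives run, and no scaling moved the median of all rows by more than 0.03 on the log2 scale. With the replicate block the log2 fold changes of the 6 genes that then also passed were -0.16 (Rps20), -0.18 (Rpl30), -0.30 (Pabpc1), -0.35 (Cct5), -0.54 (Polr2k) and -0.40 (Rbm28). Without replicate 4, Pabpc1 (-0.33), Cct5 (-0.34) and Rbm28 (-0.45) passed with genotype alone, and with the block they passed at -0.34, -0.34 and -0.45. With the block and without replicate 1, the values were -0.14 (Rps20), -0.16 (Rpl30), -0.21 (Pabpc1), -0.32 (Cct5), -0.55 (Polr2k) and -0.37 (Rbm28), and all passed. With the block and without replicate 2, or without replicate 3, Pabpc1 (-0.34, -0.30), Cct5 (-0.36, -0.37), Polr2k (-0.50, -0.67) and Rbm28 (-0.40, -0.36) passed, while Rps20 and Rpl30 did not. These 3 fits with replicate 1, 2 or 3 left out were added after seeing the data. In them 66 of 261, 48 of 262 and 43 of 254 segment rows tested were called lower, in the order of the replicate left out. Over all rows tested it was 1189 of 7137, 898 of 7090 and 803 of 6625. Cct5 also passed with library totals (-0.37) and with TMM from the checked segments (-0.32), and Pop1 did not pass with no low-count filter (-0.38). With 1 library left out and genotype alone, the log2 fold change ran from -0.30 to -0.05 for Rps20, from -0.29 to -0.08 for Rpl30, from -0.38 to -0.25 for Pabpc1, from -0.62 to -0.41 for Polr2k, from -0.45 to -0.26 for Cct5, from -0.42 to -0.37 for Pop1 and from -0.62 to -0.23 for Rbm28. Cct5 passed without Gata2 f/f replicate 4, and Rbm28 without Gata2 KO replicate 4.

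Rows past the threshold numbered 822 over the whole table and 31 in the checked segments with genotype alone. With the replicate block they numbered 2339 and 115, without replicate 4 they numbered 1437 and 74, and with the block and without replicate 4, 1727 and 94. With the block they were 2564 and 124 without replicate 1, 1992 and 94 without replicate 2, and 1797 and 85 without replicate 3. With 1 library left out the segment count ran from 24 to 49, the highest without Gata2 f/f replicate 4. Library totals turned the segment calls from 24 higher and 7 lower to 26 higher and 17 lower, and DESeq2 gave 25 higher and 13 lower. The cause of these changes was not tested. Depth limits Polr2k most, with 41 counts in its lowest library.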
